A study of Mus musculus with 8 samples.

Results

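The absorption of iron and calcium by enterocytes was followed through 10 genes, chosen by name from probes that carry their symbols: Slc11a2, Cybrd1, Slc40a1, Heph, Tfrc, Hmox1, S100g, Trpv6, Atp2b1 and Vdr. They are 10 of the 34820 gene names on the array, and 19 of the 55669 probes used carry them. The choice was made with their levels and differences on these arrays known, so their values are given as a description and without p-values. Expression was measured on 8 one-colour arrays, 1 for each pooled sample of mice of mixed C57BL/6 and 129 background. Mature medullary thymic epithelial cells (mTEC), thymus stroma that presents proteins of other organs to maturing T cells, gave 3 Cdx1+/+ and 3 Cdx1-/- samples, each from 4 to 6 thymi. They had been sorted as live cells positive for Epcam and UEA1, negative for CD45 and high for CD80 and MHCII. Small intestine epithelial cells (SIEC), sorted as live Epcam+ CD45- cells from 3 mice a sample, gave 1 sample labelled Cdx1+/+ and 1 labelled Cdx1-/-. The gene Cdx1 encodes a homeobox factor that acts in the gut epithelium, and the labels name no tissue restriction of the Cdx1-/- genotype. The labels give neither the age of the mice nor the segment of intestine.

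In the duodenum, dietary ferric iron is reduced at the brush border by Cybrd1 and taken up by the ferrous iron transporter Slc11a2. It leaves the cell through the only known iron exporter, ferroportin (Slc40a1), and is oxidised by hephaestin (Heph) for transport on transferrin. Calcium enters through the channel Trpv6, is carried across the cytosol by calbindin-D9k (S100g), and is pumped out by Atp2b1, a route that the vitamin D receptor (Vdr) drives. In the thymus, mature mTEC transcribe many such tissue-restricted genes ectopically, and the series title asks how this ectopic expression differs without Cdx1.

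RefSeq promoters (build GRCm38.p6) were matched for 6 of the 10 genes. The 250 bases before the start of S100g and of Trpv6 are shown because both genes belong to the vitamin D controlled route and these alone among the 6 held a nuclear receptor hexamer. Capitals mark AGGTCA or GGTTCA on either strand, the core hexamers of sites that receptors of the Vdr class bind.
S100g, chrX:162964600-162964849, minus strand: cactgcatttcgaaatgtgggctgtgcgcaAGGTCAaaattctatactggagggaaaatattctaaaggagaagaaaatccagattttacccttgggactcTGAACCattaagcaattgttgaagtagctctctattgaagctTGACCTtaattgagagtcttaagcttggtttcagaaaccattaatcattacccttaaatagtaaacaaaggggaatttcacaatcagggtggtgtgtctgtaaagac
Trpv6, chr6:41636406-41636655, minus strand: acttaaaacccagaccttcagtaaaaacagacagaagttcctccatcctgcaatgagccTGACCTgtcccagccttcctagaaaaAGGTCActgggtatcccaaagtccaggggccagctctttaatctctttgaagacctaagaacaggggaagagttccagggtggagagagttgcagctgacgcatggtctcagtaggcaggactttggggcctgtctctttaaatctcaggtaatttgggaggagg

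The S100g window held 3 hexamers, at 220 to 215 and 149 to 144 bases before the start, with the third closer to it. Trpv6 held 2, at 191 to 186 and 165 to 160 bases. Such a hexamer was present in 21.5% of 32851 promoter windows of this length. A Cdx motif, TTTATG or TTTATA on either strand, was found in the 250 bases of none of the 6 genes, against 20.9% of all windows. The hypoxia response core ACGTG was found for Tfrc alone, in 1 of its listed promoters, against 16.6% of all windows. These are letter matches only.

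A level here is the log2 signal of a probe minus the 75th percentile of its array, so that a level is read across arrays for 1 probe and not between probes. Of 59305 spots, 58.6% to 63.5% were well above background on the mTEC arrays and 44.6% to 46.3% on the SIEC arrays, and none was saturated. The Cdx1 probe lay between 5.88 and 5.96 on the Cdx1+/+ mTEC arrays and between 4.80 and 4.99 on the Cdx1-/- mTEC arrays. On the SIEC arrays it went against the labels, with 4.87 in the sample labelled Cdx1+/+ and 6.48 in the one labelled Cdx1-/-. The labels do not say whether this probe lies in the deleted part. The SIEC samples are therefore called by their labels throughout, and the direction of each SIEC genotype difference rests on those labels. Slide 1 held 5 mTEC arrays, and slide 2 held Cdx1-/- mTEC replicate 1 with both SIEC arrays. All 10 enterocyte markers were well above background on the arrays of both tissues, so their detection does not tell the tissues apart. Their levels went with the tissue labels, with sums, as multiples of the 75th percentile, of 1960 and 3310 in SIEC. In mTEC these sums were 20.0 to 41.5. Of 7 genes typical of mature mTEC, all were above background on the mTEC arrays. On both SIEC arrays 5 of them were too, and Aire and Fezf2 were on neither.

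Within mTEC, 3 of the 10 genes were lower in Cdx1-/- than in Cdx1+/+ samples past the threshold of an adjusted p of 0.05 (limma, Benjamini-Hochberg over all genes), and none was higher past it. These 3 were the iron exporter Slc40a1, the ferroxidase Heph and the calcium carrier S100g. Over all 24256 genes tested, 12.9% passed, 6.64% lower and 6.30% higher in Cdx1-/-. The values of the genotypes did not overlap for 4 of the 10 genes, against 38.0% of all genes. Since the genes were chosen with this contrast known, nothing is read from these counts. The median log2 difference was -0.19 over the 10 genes and 0.00 over all genes.

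**Figure D1:**
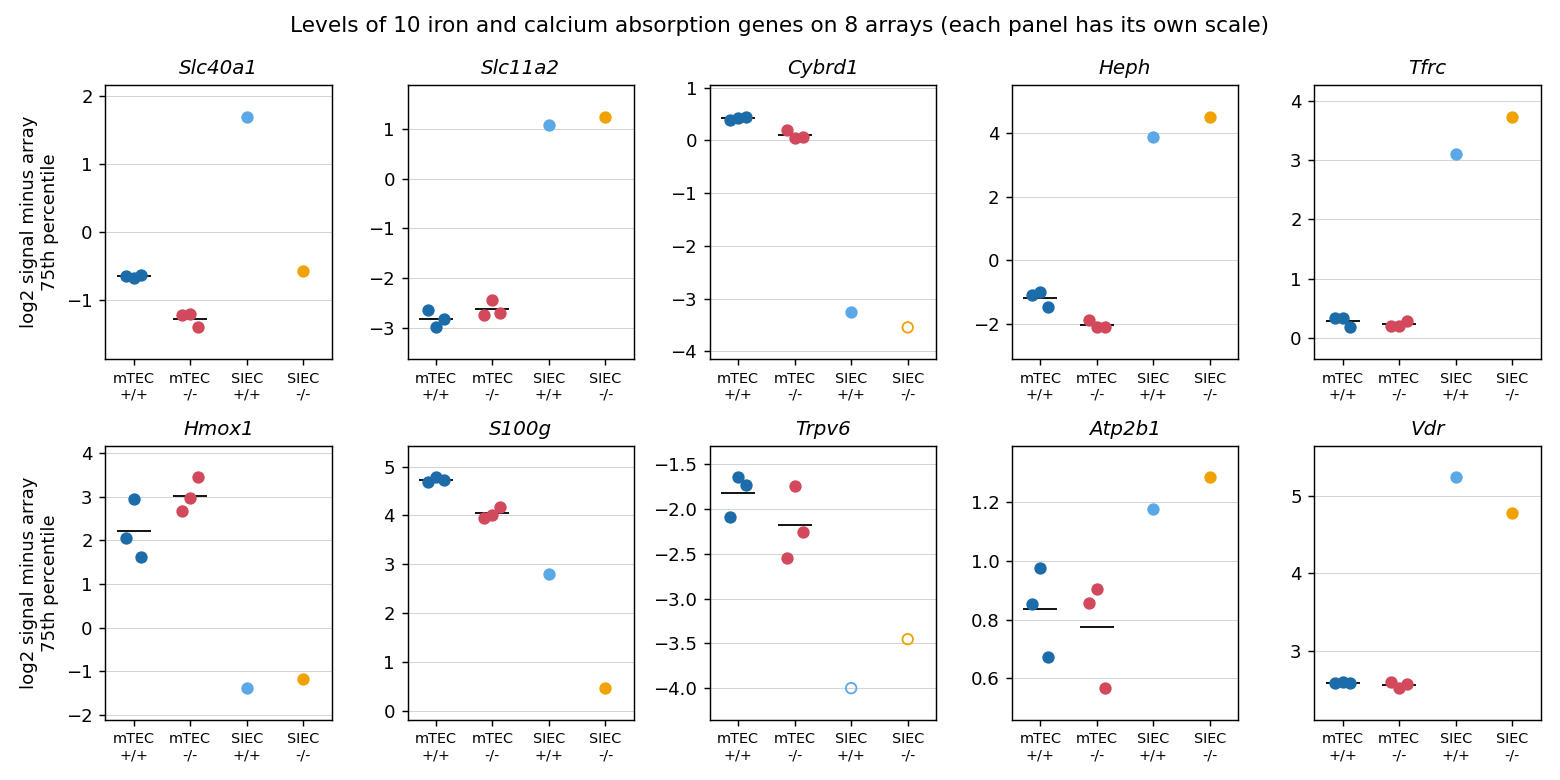
Log2 signal minus the array's 75th percentile (y axis) of the 10 genes in each group (x axis), 1 point per array, for the brightest probe of each gene. Lines are means of the 3 mTEC arrays of a genotype, and open circles mark arrays where the probe was not well above background. The Cdx1-/- mTEC points of Slc40a1, Heph, S100g and Cybrd1 all lie below the Cdx1+/+ points.

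S100g, the cytosolic calcium carrier, was read by a probe at chrX:159399938-159399997 (mm9, minus strand). It stood at 4.68, 4.78 and 4.72 in the Cdx1+/+ mTEC samples. It was at 3.95, 4.01 and 4.17 in the Cdx1-/- samples. Every Cdx1-/- sample was below every Cdx1+/+ sample, by at least 0.52, and the difference was -0.69 (SE 0.09, n = 3 against 3), or 1.61-fold lower. A second S100g probe, which shares 46 of its 60 bases with the first and so adds little, gave -0.71. In SIEC the gene was at 2.81 in the sample labelled Cdx1+/+ and at 0.47 in the one labelled Cdx1-/-, 5.08-fold lower, with no replicate. Its highest levels were thus in Cdx1+/+ mTEC, above both intestine samples.

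Slc40a1, the iron exporter of the basolateral membrane, was read by its only probe, at chr1:45965255-45965314 (mm9, minus strand). It was at -0.64, -0.66 and -0.62 in Cdx1+/+ mTEC. In Cdx1-/- mTEC it was at -1.21, -1.20 and -1.40. The genotypes were 0.54 apart at their closest, and the difference was -0.63 (SE 0.09), or 1.55-fold lower. In SIEC it was at 1.70 in the sample labelled Cdx1+/+ and at -0.56 in the one labelled Cdx1-/-, 4.80-fold lower. The second of these intestine samples was within 0.06 of the highest mTEC sample.

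Heph, which oxidises the exported iron, was read by a probe at chrX:93769721-93769780 (mm9, plus strand). It was at -1.10, -0.99 and -1.46 in Cdx1+/+ mTEC. In Cdx1-/- mTEC it was at -1.89, -2.11 and -2.08. The groups did not overlap, and the difference was -0.84 (SE 0.14), or 1.79-fold lower. It fell short of the threshold without Cdx1+/+ replicate 1, at -0.80, and without Cdx1-/- replicate 3, at -0.82. In SIEC the order was the other way, with 3.89 in the sample labelled Cdx1+/+ and 4.52 in the one labelled Cdx1-/-. The 2 other Heph probes on the array were well above background on none of the 8 arrays.

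Cybrd1, the ferric reductase, was at 0.38, 0.42 and 0.45 in Cdx1+/+ mTEC. It was at 0.21, 0.04 and 0.07 in Cdx1-/- mTEC, again without overlap, but its difference of -0.31 (SE 0.09) did not pass the threshold. It passed with quantile normalization, at -0.35, and when genes had to be above background on all 6 arrays, at -0.31. A second Cybrd1 probe gave -0.16, with the genotypes 0.05 apart.

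The other 6 genes did not pass, and the genotypes overlapped for each. Hmox1, which breaks down haem and frees its iron, varied widely between replicates. It was at 2.05, 2.95 and 1.62 in Cdx1+/+ mTEC and at 2.66, 2.97 and 3.44 in Cdx1-/- mTEC, a difference of 0.82 (SE 0.36). Its second probe gave 0.59. The apical iron transporter Slc11a2 ranged from -2.98 to -2.63 in Cdx1+/+ and from -2.73 to -2.43 in Cdx1-/- mTEC, with a difference of 0.19. The transferrin receptor Tfrc, through which cells take up iron from blood, ranged from 0.18 to 0.34 and from 0.20 to 0.30, with a difference of -0.05.

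The calcium channel Trpv6 was at -2.08, -1.64 and -1.73 in Cdx1+/+ mTEC and at -2.54, -1.74 and -2.26 in Cdx1-/- mTEC, a difference of -0.36 (SE 0.22). The calcium pump Atp2b1 ranged from 0.67 to 0.98 and from 0.57 to 0.91, with a difference of -0.06. Vdr showed the smallest spread, from 2.59 to 2.60 in Cdx1+/+ and from 2.53 to 2.60 in Cdx1-/- mTEC, a difference of -0.03.

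Markers of other cells are given beside these values. The summed level of 10 enterocyte markers, as multiples of the 75th percentile, was 36.8 to 41.5 in Cdx1+/+ and 20.0 to 21.0 in Cdx1-/- mTEC, and 9 of the 10 were lower past the threshold. Macrophages also express Slc40a1 and Hmox1, and the sort for CD45- Epcam+ cells is meant to exclude them. The sum of 12 macrophage markers was 46.8 to 49.2 in Cdx1+/+ and 47.5 to 51.8 in Cdx1-/- mTEC. Of the 12, 11 were above background on all mTEC arrays, and Cd163 on none. Among the macrophage markers, Lyz2 was higher and Mrc1 lower past the threshold. The sum of 6 erythroid markers was 16.9 to 18 in Cdx1+/+ and 15.9 to 17.9 in Cdx1-/- mTEC, with Alas2 lower past the threshold. In such bulk samples fewer cells of a type and less RNA per cell cannot be told apart, and the part of these markers in the results was not tested. Cdx1-/- replicate 1 lies on another slide than the other mTEC samples. Within slide 1 the differences were -0.64 for S100g, -0.66 for Slc40a1 and -0.91 for Heph.

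Between the SIEC samples 2 of the 10 genes, S100g and Slc40a1, were at least 2-fold apart, both lower in the sample labelled Cdx1-/-. Of the 19078 genes above background on at least 1 of the 2 arrays, 9.24% were at least 2-fold apart, with a median difference of -0.04. There is 1 array for each label, so these differences have no replicate check and no test. Relative to that median S100g differed by -2.30 and Slc40a1 by -2.22. Tfrc was higher in the sample labelled Cdx1-/- by 0.63, from 3.11 to 3.73, and Heph by 0.64. Vdr differed by -0.46, from 5.23 to 4.78. Slc11a2 (0.17), Hmox1 (0.20) and Atp2b1 (0.11) differed by less, and their sign turned with the authors' scaling. Cybrd1 was above background on the array labelled Cdx1+/+ only, at -3.26, and Trpv6 was not well above background on either.

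**Figure D2:**
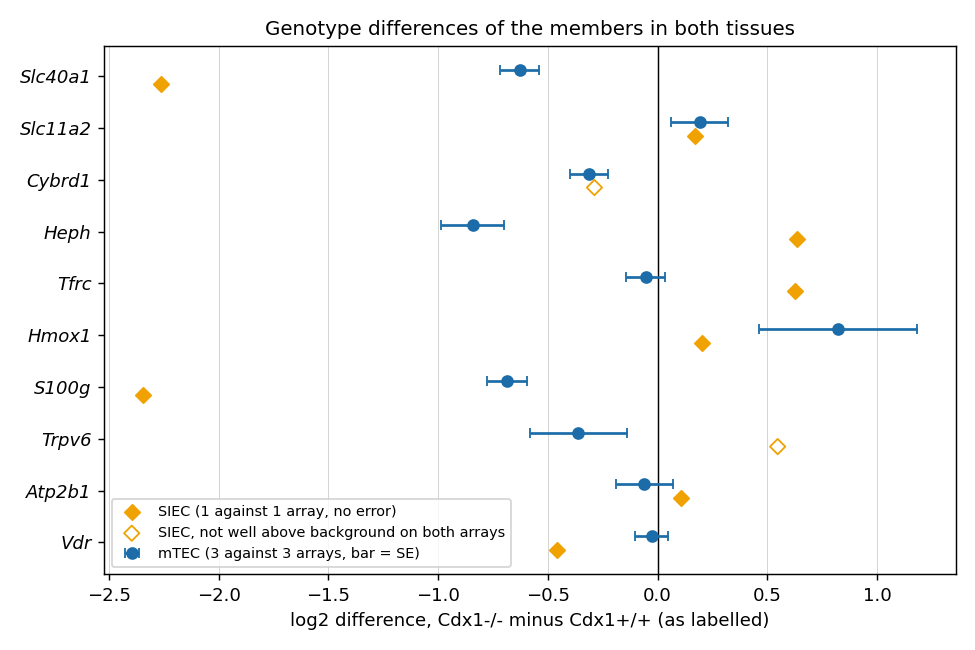
Log2 difference between Cdx1-/- and Cdx1+/+ samples, as labelled (x axis), of the 10 genes (y axis). Circles are mTEC with their SE (3 against 3 arrays), and diamonds are SIEC with 1 array a label and no error, open where the probe was not well above background on both arrays. S100g and Slc40a1 lie left of 0 in both tissues, and Heph at -0.84 in mTEC and 0.64 in SIEC.

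The SIEC samples differed in other ways too. The sum of 5 proximal intestine markers was 173 in the sample labelled Cdx1+/+ and 377 in the one labelled Cdx1-/-. Lct, also an enterocyte marker, made up most of the proximal sum in both samples, at 7.19 and 8.14. Among the other proximal markers Ada, an adenosine deaminase abundant in the duodenum, was at 2.10 and 6.22. Gata4 was at 2.97 and 2.96 and Onecut2 at 3.81 and 3.72, while Pdx1 was above background on neither array. The sum of 4 distal markers was 732 and 631, that of 10 enterocyte markers 1960 and 3310, and that of 6 thymocyte markers 11.1 and 30.7. Fabp6 made up nearly all of the distal sum, at 9.50 and 9.28. The distal marker Slc10a2 was at 1.48 and 2.78, Fgf15 at 0.61 and -0.23, and Osr2 at 1.24 and 1.08. Iron and calcium uptake are strongest in the duodenum, and the part of segment, of other cells or of the label in the S100g and Slc40a1 values was not tested.

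S100g and Slc40a1 were set beside the genes with the most similar pattern, as Pearson's r of log2 level over the 8 arrays among 16277 genes above background on all of them. Nearest to S100g were Hmx3 (r = 0.997), Snx22 (0.995) and Lrrc49 (0.990). Nearest to Slc40a1 were Tnrc6b (0.994), Pla2g4c (0.994) and Shf (0.985). The levels of Tnrc6b spanned a narrow range, from -0.25 to 0.26, and those of Pla2g4c a wide one, from -3.54 to 2.57. For Tfrc the nearest were Dgka (0.999), Pcyt2 (0.999) and Slc46a1 (0.999), the last a transporter of haem and folate in the duodenum. The points share their tissue and slide, and no test was made of these values.

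Other genes of both pathways were listed by function, with earlier results of these data known, and tested in mTEC. Their adjusted p-values are therefore given as a description. Of 42 further iron genes, 39 were above background often enough to test, of which 5 fell in Cdx1-/- mTEC and 0 rose. The other 34 did not pass. The median difference of the 39 was -0.08, against 0.00 over all genes, and 12.9% of all genes passed, a share near that of the list. Hamp2, a hepcidin gene, fell by 0.70 on the log2 scale (SE 0.11, limma adjusted p = 0.0125), from 2.04, 2.13 and 2.16 to 1.22, 1.45 and 1.56. Its near-identical neighbour Hamp, hepcidin itself, differed by -0.60 (adjusted p = 0.058), and since the array may not tell the copies apart both are uncertain. Tmprss6, a protease that restrains hepcidin signalling, fell by 0.63 (adjusted p = 0.0150), and Smad4, which relays that signal, by 0.54 (adjusted p = 0.0105). Slc39a14, a transporter of zinc and of iron not bound to transferrin, fell by 0.52 (adjusted p = 0.0137). Abcg2, an efflux pump for haem and other compounds, was the fifth and had the smallest change, -0.45 (adjusted p = 0.0351). The ferritin chains Fth1 (0.06) and Ftl1 (-0.26), which store iron, did not pass.

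The iron count was 1 without Cdx1+/+ replicate 3 and 3 without Cdx1-/- replicate 3. Smad4 passed under all 14 alternatives, with adjusted p from 0.0063 to 0.0466. Hamp2 (0.0531), Slc39a14 (0.0530), Tmprss6 (0.0599) and Abcg2 (0.113) did not pass without Cdx1+/+ replicate 3, nor did Tmprss6 (0.0502) and Abcg2 (0.0946) without Cdx1-/- replicate 3. Abcg2 was also lost without any other single array except Cdx1+/+ replicate 2, with adjusted p from 0.0700 to 0.101.

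**Figure D3:**
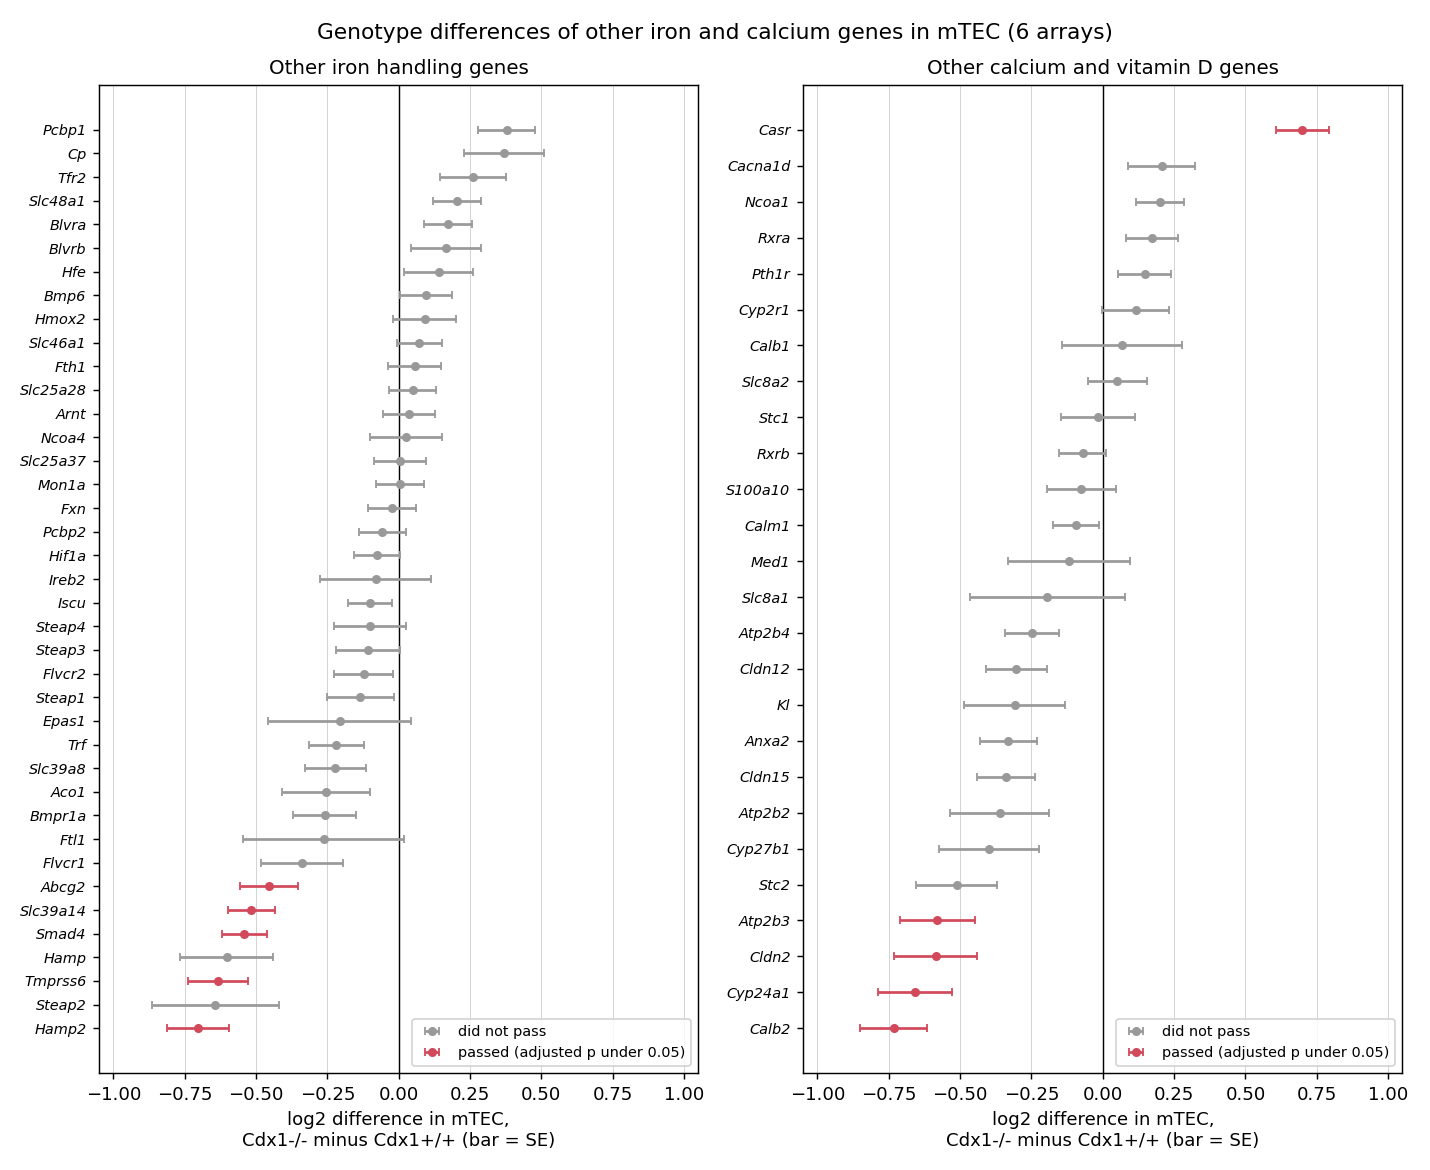
Log2 difference between Cdx1-/- and Cdx1+/+ mTEC (x axis, bars are SE, 3 against 3 arrays) of 39 other iron genes and 26 other calcium and vitamin D genes (y axis). Red marks genes with a limma adjusted p under 0.05. All 5 red iron genes lie left of 0, as do 4 of the 5 red calcium genes, and Casr lies right of it at 0.70.

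Of 27 further calcium and vitamin D genes, 26 were tested, of which 1 rose and 4 fell in Cdx1-/- mTEC. The other 21 did not pass, and the median difference was -0.16. Again 12.9% of all genes passed, 6.64% lower and 6.30% higher. Casr, the calcium-sensing receptor of the parathyroid and kidney, rose by 0.70 (SE 0.09, limma adjusted p = 0.00808), from -0.03, 0.19 and 0.04 to 0.76, 0.82 and 0.72. Calb2, the cytosolic calcium binder calretinin, fell by 0.73 (adjusted p = 0.0134). Cyp24a1, the enzyme that inactivates vitamin D and a classical target of Vdr, fell by 0.66 (adjusted p = 0.0249). Cldn2, a claudin that lets calcium pass between cells, fell by 0.59 (adjusted p = 0.0448), and Atp2b3, a plasma membrane calcium pump, by 0.58 (adjusted p = 0.0361). Casr passed under all 14 alternatives, with adjusted p from 0.00431 to 0.0393. With the replicate number as a block Cldn2 did not pass (adjusted p = 0.0596, and 0.0300 to 0.118 over its alternatives), while Stc2, a stanniocalcin, did (-0.51, adjusted p = 0.0258). The count was 1 to 3 when any 1 array was left out, and it was 1 without Cdx1+/+ replicate 3. Calb2 was lost there alone (adjusted p = 0.0512), while Cldn2, Cyp24a1 and Atp2b3 were lost under 10, 8 and 9 of the 14 alternatives, with adjusted p up to 0.118, 0.0754 and 0.185.

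Between mTEC and SIEC the 10 genes fell into opposite groups. Slc11a2, Heph, Tfrc, Slc40a1, Vdr and Atp2b1 were lower in mTEC, and Cybrd1, Hmox1, S100g and Trpv6 were higher. All 10 passed the threshold and had no array of one tissue within the range of the other. Over the 25186 genes tested 83.6% passed, 34.3% higher and 49.3% lower in mTEC, and 82.1% did not overlap, so the counts are near the background. The median of all genes was -0.43 on this scale, from -0.90 to -0.13 with other scalings, and differences are also given relative to it. With normexp background correction the calls over all genes split into 6029 higher and 14496 lower, against 8649 and 12415 here.

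Of the iron genes, Heph showed the widest gap, with -2.11 to -0.99 in mTEC against 3.89 and 4.52 in SIEC, a fitted difference of -5.81 (SE 0.31, 56.1-fold lower). Slc11a2 was at -2.98 to -2.43 in mTEC against 1.07 and 1.24, a difference of -3.87. Tfrc was at 0.18 to 0.34 against 3.11 and 3.73, a difference of -3.16, and its 2 other probes gave -3.20 and -3.01. A sum of 6 cell cycle markers was 29.6 to 35.2 in mTEC and 134 and 179 in SIEC, and its part was not tested. Slc40a1 differed by -1.53, which rests on the sample labelled Cdx1+/+: it was -0.71 without that array and -2.35 without the one labelled Cdx1-/-. Slc40a1 did not pass with slide as a block, at -1.22.

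Cybrd1 ran the other way, with 0.04 to 0.45 in mTEC against -3.26 and -3.55 in SIEC, a difference of 3.66, and the second of these SIEC arrays was not well above background. Its second probe, not well above background on either SIEC array, was at least 8.50-fold higher in mTEC. Hmox1 was at 1.62 to 3.44 in mTEC against -1.38 and -1.18, a difference of 3.90. The macrophage marker sum was 10.4 and 11.9 in SIEC, below the 46.8 to 51.8 of mTEC, and its part was not tested. Mertk, alone among the macrophage markers above background, went the other way, at -4.23 to -3.43 in mTEC against 1.66 and 2.11. The iron reductase and the haem enzyme thus had the opposite order to the apical transporter. The labels give no segment of intestine, and 4 of 5 proximal and all 4 distal markers were above background on both SIEC arrays. The part of segment in the tissue differences of the 10 genes was not tested.

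Among the calcium genes, S100g was at 3.95 to 4.78 in mTEC against 2.81 and 0.47 in SIEC, a difference of 2.75 (SE 0.32, 6.71-fold higher). It remained higher without the SIEC array labelled Cdx1-/-, at 1.92. Trpv6, not well above background in SIEC, was at least 3.31-fold higher in mTEC on this scale, a bound equal to the measured fold. With normexp its difference of 0.32 did not pass. Vdr was at 2.53 to 2.60 in mTEC against 5.23 and 4.78, a difference of -2.42. Atp2b1 was at 0.57 to 0.98 against 1.18 and 1.29. Its difference of -0.43 was that of the median gene, and it did not pass without the SIEC array labelled Cdx1-/-, with slide as a block, with quantile normalization or with probes averaged.

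**Figure D4:**
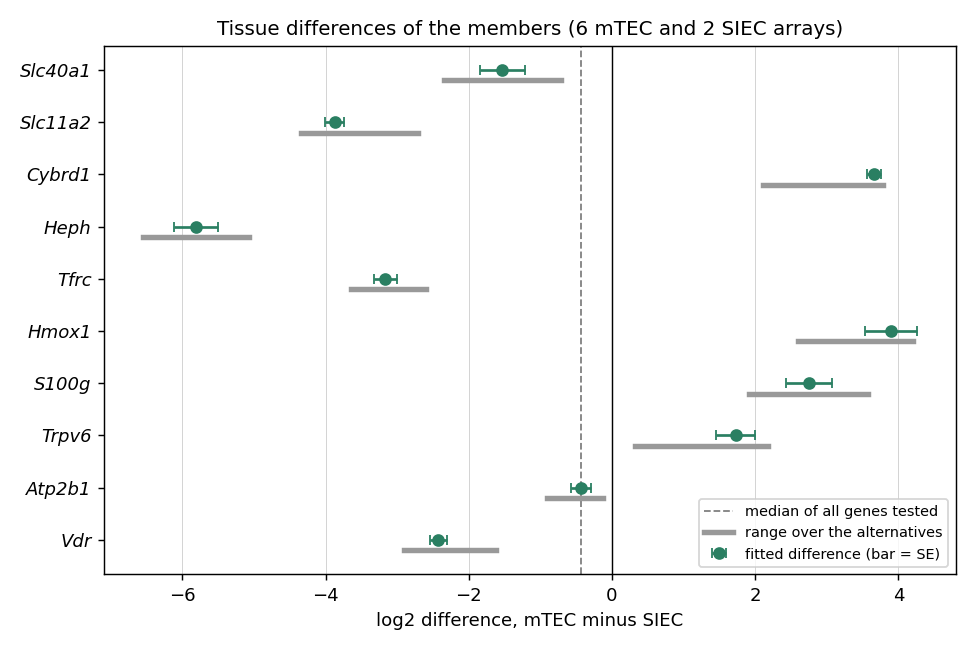
Log2 difference between 6 mTEC and 2 SIEC arrays (x axis) of the 10 genes (y axis), with its SE and, in grey, the range over the alternatives. The dashed line at -0.43 is the median of all genes tested. Relative to this line Heph, Slc11a2, Tfrc, Vdr and Slc40a1 are lower in mTEC, Hmox1, Cybrd1, S100g and Trpv6 are higher, and Atp2b1 lies on it. Trpv6 was well above background on neither SIEC array and Cybrd1 on 1.

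Relative to the median of all genes, the differences were -5.38 for Heph, -3.45 for Slc11a2, -2.74 for Tfrc and -1.10 for Slc40a1, with Vdr between the last pair. They were 4.32 for Hmox1 and 3.17 for S100g, and 4.09 for Cybrd1, whose probe was well above background on 1 of the 2 SIEC arrays. For Trpv6, well above background on neither, the bound of 3.31-fold equals the measured fold and holds on this scale only. With normexp its difference, not taken relative to the median, was 0.32. The 8 genes other than Trpv6 and Atp2b1 kept their side of the median under quantile normalization, normexp and the authors' scaling. Atp2b1 lay within 0.23 of the median. Trpv6 lay above the median too, by 2.15 here and with the authors' scaling, 1.335 with quantile normalization and 0.87 with normexp. These Trpv6 values rest on SIEC signals not well above background. Cdx1-/- mTEC replicate 1 shares slide 2 with the SIEC arrays. Against them it differed with the same sign for all 10 genes, from -6.09 for Heph to 3.94 for Hmox1.

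Probes of 1 gene did not always give the same size of tissue difference. Slc11a2 differed by -3.87 with the probe above and by -1.56 with one that starts 22183 bases further toward the start of the gene and matches 2 RefSeq transcripts. Hmox1 differed by 3.90 and, with a probe 3410 bases closer to the start of the gene, by 1.31. These more upstream probes, which gave the smaller differences, are shown as the files give them on build mm9, and exon annotation of that build was not used here.
Slc11a2, chr15:100240516-100240575, minus strand: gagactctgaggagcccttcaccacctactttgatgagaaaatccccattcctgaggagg
Hmox1, chr8:77620797-77620856, plus strand: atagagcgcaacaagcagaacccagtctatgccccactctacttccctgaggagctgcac
Both probes kept the direction of their gene. The 2 Atp2b1 probes gave -0.43 and -0.12, and the second did not separate the tissues.

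The other iron genes, with a median tissue difference of -0.81, had 23 of 39 lower and 11 higher in mTEC, where 49.3% of all genes were lower and 34.3% higher. Those with the largest fitted differences upward are named, but bounds give no order among them. The hepcidin gene Hamp was at 2.34 to 3.38 in mTEC and not well above background in SIEC, at least 96.7-fold higher, and Hamp2 was at least 43.5-fold higher. The plasma ferroxidase ceruloplasmin (Cp) was at least 25.0-fold higher and transferrin (Trf), measured in both tissues, 44.4-fold. Tmprss6, outside the naming rule and added after its values were seen, was at least 34-fold higher. Lowest in mTEC were Abcg2 (-4.47), the metalloreductases Steap2 (-4.15) and Steap1 (-3.93), and Slc46a1 (-3.85). The rule named only genes past the threshold, so nothing is read from the passing of these 8 (limma, largest adjusted p = 1.31e-06). Hamp, Hamp2 and Cp were well above background on neither SIEC array, and their p-values rest on such dim signals.

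Among the other calcium genes, 14 of 26 were higher and 11 lower in mTEC, where 34.3% of all genes were higher and 49.3% lower. The median was 1.42, against -0.43 over all genes. Most of the 14 were well above background on neither SIEC array and were tested through their mTEC signal. Nothing is therefore read from the count or the median. The largest fitted differences upward, again without an order among bounds, were those of Casr (at least 18.5-fold), the sodium-calcium exchanger Slc8a2 (at least 41.7-fold), the parathyroid hormone receptor Pth1r (at least 19.9-fold) and the pump Atp2b2 (22.8-fold). Lowest were the claudins Cldn15 (-8.71), Cldn2 (-5.44) and Cldn12 (-3.61), which form paracellular pores, and S100a10 (-3.39), a partner of Trpv6 at the membrane.

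Between the SIEC samples, Bmp6, the signal that induces hepcidin, and Tfr2, a sensor of transferrin iron, were above background in the sample labelled Cdx1+/+ only. Bmp6 was at least 2.55-fold lower in the one labelled Cdx1-/- and Tfr2 at least 1.30-fold. Flvcr1, a haem exporter, was higher there by 1.14, from -0.08 to 1.06. These 3 were named after their values were seen, as those whose measured signals differed most among the 34 iron genes above background on a SIEC array. For Bmp6 and Tfr2 only the bound is supported, and that of Tfr2 is under 2-fold. Of the 14 calcium genes above background on a SIEC array, 0 had signals at least 2-fold apart, and of the 34 iron genes 2 were lower and 1 higher. Among all genes above background on at least 1 SIEC array 9.24% were at least 2-fold apart, so nothing is read from these counts. These values rest on 1 array for each label.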

How the data were processed

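RNA of 8 pooled samples was hybridised to 1-colour (Cy3) arrays, per the labels. The deposited files hold linear intensity values per spot, which the authors made with Agilent Feature Extraction, as both the submitters' processing notes and the file headers say. The headers give version 10.7.3.1. The authors' table of normalized intensity, deposited with them, is each array's processed signal times a constant, with the choice of that constant not given in the sources used here.

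From the processed intensity (background-subtracted, per the file headers), outlier-flagged spots were dropped (12 probes lost), values were put on a log2 scale, each array's 75th percentile was subtracted and a probe's spots were averaged. A probe counted as well above background where at least 0.5 of its spots were flagged so. Genes needed this on at least 2 arrays of 1 group (1 for a group of 1) and were represented by their brightest such probe. Groups were compared with limma 3.58.1 in R 4.3.3 (lmFit and eBayes, 2-sided, Benjamini-Hochberg over all genes, threshold 0.05), tested on simulated data: 6 mTEC arrays for genotype, and all 8 with genotype as an additive term for tissue. Where no array of a group measured a probe well above background, the fold is a bound, written "at least". It sets the brighter group's mean against the dimmer group's detection floor, or against the probe's own signal where that was higher. Differences of the SIEC pair have no test. Marker sums add linear levels. The small number of arrays limits precision, and p-values measure the spread between pooled samples, which the design text calls independent replicates.

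Members and lists were chosen with earlier results of these data known. All 10 members are named, with up to 4 higher and 4 lower genes past the threshold, of largest difference, from each list and comparison. Of list genes, Flvcr1 was found under Mfsd7b. Ftmt, Hfe2, Hephl1 and Trpv5 were above background on too few arrays. The titles number the replicates. Deviations from the group means correlated by 0.322, 0.148 and 0.148 between same-numbered Cdx1+/+ and Cdx1-/- mTEC samples, against -0.222 to 0.056 for other pairs (24256 genes), so a replicate block was fitted as an alternative. Other alternatives were quantile normalization, normexp (offset 50), the authors' table, both other filters, the mean of probes, slide as a block, each array left out, and, for promoters, the whole 300 bases. Promoters were matched by symbol, and those of Slc40a1, Slc11a2, Heph and Hmox1 were not matched. Python 3.11.15, pandas 2.3.3 and matplotlib 3.10.9 made tables and plots.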

Additional observations from a re-analysis of the deposited data

Results flagged for a closer look

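Heph, the ferroxidase of iron export, was lower in all 3 Cdx1-/- mTEC samples than in all 3 Cdx1+/+ samples, with a difference of -0.84, while in SIEC the sample labelled Cdx1-/- was higher by 0.636. Taken by the labels, the tissues went opposite ways. The Cdx1 probe went against those labels in SIEC, and with the labels exchanged Heph would be lower by 0.636 there, as in mTEC, while S100g and Slc40a1 would be higher, opposite to mTEC. The direction therefore rests on the labels, and the difference between the tissues was not tested, since SIEC has 1 array for each label.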

How the results depend on the processing

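Of the 10 members' genotype differences in mTEC, those other than Heph and Cybrd1 kept their side of the threshold under all 14 alternatives, and the number past it was 2 to 3 with 1 array left out. Between tissues it was 9 to 10. The replicate block left the number of members (3), of other iron genes (5) and of other calcium genes (5) past the threshold in mTEC as it was, and it changed no call of theirs other than those of Cldn2 and Stc2. With 1 array left out, other iron genes past the threshold numbered 1 to 5 in mTEC and 33 to 34 between tissues, and other calcium genes 1 to 3 and 25 to 26. The 5 calcium calls in mTEC became 3 with normexp, 2 with no filter on dim probes and 3 with slide as a block, a fit identical to the one without Cdx1-/- mTEC replicate 1. Between tissues the 25 calcium calls became 14 when genes had to be above background on every array, since only 14 were then tested. That filter also left no tissue value for Cybrd1 and Trpv6. Single tissue differences that turned sign were those of Smad4 (0.20) and Pcbp1 (0.16) with quantile normalization, Arnt (0.27) with the mean of probes and Stc1 (-0.28) with normexp, and the cause was not tested. In the whole 300-base promoter window 1 of the 6 genes, S100g, held a Cdx motif, against 22.8% of all windows. Signal over background limits Cybrd1 and Trpv6 in SIEC and Heph to 1 usable probe.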
